A study of Mus musculus with 20 samples.

Results

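RNA from whole mouse embryonic stem cells (ESCs) was compared on day 3 after deletion of Cnot3. The 4 libraries were those titled as total RNA, 2 from knockout (KO) and 2 from control (WT) cells, out of 20 libraries in the series. KO cells carried a conditional Cnot3 allele and received 0.1 µM 4-hydroxytamoxifen (4OHT), and WT cells received the solvent DMSO. Replicates were described as biological. The source label of the 2 WT libraries names E14Tg2a ESCs and that of the 2 KO libraries names conditional Cnot3 ESCs, whereas the design text derives both arms from the conditional cells, so a difference of line and the deletion cannot be told apart from the labels. A control without the conditional allele that received 4OHT is not among these groups. Each library held between 27664391 and 35170012 reads assigned to genes.

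CCR4-NOT is the main deadenylase of the cytoplasm. It shortens the poly(A) tails of mRNAs, after which they are decapped and degraded, and it is recruited to its targets by RNA-binding proteins and by microRNAs. Cnot3 is a subunit outside the catalytic center and is required in ESCs for their undifferentiated state. Lineage markers are left aside below, and the genes are ordered by function.

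Cnot3 (ENSMUSG00000035632; chromosome 7, 3645268 to 3661109, GRCm38) had 1314 and 1172 reads in WT and 200 and 239 in KO. The labels of the arms thus matched the targeted gene. Hprt, of which the E14Tg2a line is known to lack a working copy, had 5661 and 4830 reads in WT and 4340 and 4360 in KO, so the gene was counted in every library. All 10 ESC identity markers had reads in each library and 9 of them fell; their summed level was 7545 and 6993 CPM in WT (CPM are read counts scaled to a common library total, here with TMM factors, which correct for composition) and 3853 and 3682 CPM in KO. Of 16 feeder fibroblast markers 13 could be tested, 8 rose and 2 fell, none was at 0 reads in any library, and their sum was 72.5 and 76.7 CPM in WT and 98.7 and 107.1 CPM in KO. The part of such cells in the results below was not tested. In whole libraries, fewer cells of a type and less RNA per cell cannot be told apart.

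With edgeR's quasi-likelihood test, 18924 genes were tested and 57.8% passed an adjusted p of 0.05: 28.9% were higher in KO (5469 genes) and 28.9% lower (5467). Genes higher with a log2 change of 1 or more made up 11.2% (2126), and genes lower by as much 3.33% (630). Every gene that passed had CPM values that did not overlap between the groups. Counts of a list's members are read below against these shares. A separate experiment on day 2, before actinomycin D, has 2 KO and 2 WT libraries that all carry the label of the conditional line, and shares no library with day 3; there 32.1% of 15255 genes were higher and 32.5% lower. The day 2 libraries differ in make-up too (20736 to 20905 genes with a read, against 29568 to 32072 on day 3), and the difference between days was not tested.

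The size and direction of change varied with abundance. In the quintile of genes with the lowest mean CPM (0.271 to 0.944) the median log2 change was 0.46, and 25.7% were higher against 5.15% lower. In the quintile with the highest (58.0 to 18797 CPM) the median was -0.24, with 14.1% higher and 57.7% lower. On day 2 the lowest and highest quintiles had medians of 0.48 and -0.15. A gene in the lowest quintile could pass the filter on low counts through its higher group alone. Reads outside annotated genes moved with the arms on day 3, at 19.8% and 20.7% of counted reads in WT and 22.3% and 23.7% in KO, as did the number of genes with a read (29568 and 30133 in WT, 31569 and 32072 in KO). Their part in the rise of rare transcripts was not tested. On day 2, in libraries of another make-up (above), reads outside annotated genes came to 7.22% and 6.70% in WT and 6.27% and 6.57% in KO. Medians of several gene lists are therefore also given relative to the median of genes of like abundance (20 equal bins). These bins hold protein-coding and noncoding genes together. Among protein-coding genes alone, the lowest quintile (0.271 to 1.52 CPM) had a median of 0.75, with 40.4% higher and 2.28% lower.

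**Figure D1:**
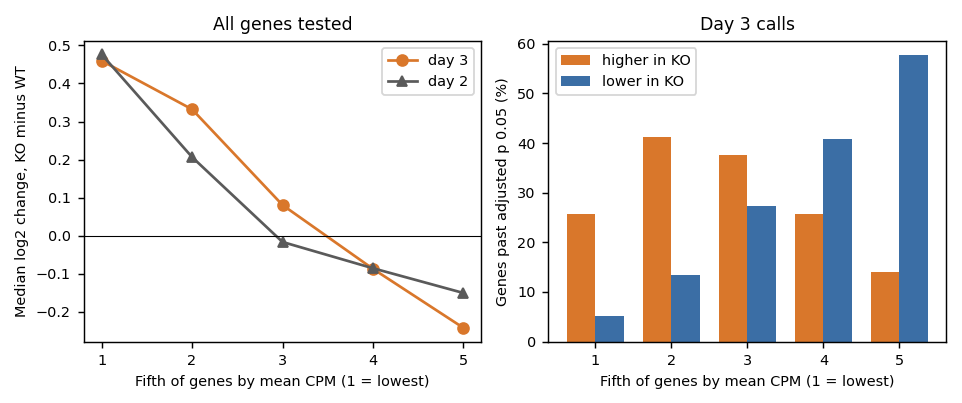
Left, median log2 change in KO (KO minus WT) in each quintile of genes by mean CPM, on day 3 (circles) and in the separate day 2 libraries (triangles); right, the percentage of genes in each quintile of day 3 that passed adjusted p 0.05 as higher (orange) or lower (blue). The day 3 median goes from 0.46 in the rarest quintile to -0.24 in the most abundant.

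Protein-coding genes were ranked where their average log2 CPM was at least 3, with Cnot3 and the lineage lists left out; some rarer genes moved further. In this ranking the largest rise was in Foxj1, the transcription factor that switches on motile cilia genes. It had 1.91 and 1.82 CPM in WT and 15.4 and 14.6 CPM in KO, 8.03-fold more (log2 3.01 ± 0.12, SE; adjusted p = 1.29e-09, edgeR). Slc4a11, a membrane transporter (ENSMUSG00000074796; chromosome 2, 130684113 to 130697519, GRCm38), went from 18.1 and 18.6 to 124.3 and 127.7 CPM (log2 2.78 ± 0.06). Sfn, the 14-3-3 sigma protein known as a p53 target that holds cells in G2, had 21.4 and 24.4 CPM in WT and 159.5 and 151.0 CPM in KO (log2 2.76 ± 0.07). KO libraries lay far above WT for all of these. The lipid droplet protein Cidea (log2 2.76), the phospholipase Plcd4 (2.604), the homeobox factor Nkx2-9 (2.54), the calcium-binding protein S100a6 (2.45), the ubiquitin ligase adaptor Klhl26 (2.42), the sodium-iodide symporter Slc5a5 (2.39) and the adaptor Sh2d3c (2.39) followed. All 10 also rose on day 2, by 1.30 for S100a6 to 3.23 for Foxj1.

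The largest fall in the same ranking was in Enpp3, a cell-surface nucleotidase (ENSMUSG00000019989; chromosome 10, 24772406 to 24842823, GRCm38), with 44.2 and 41.4 CPM in WT and 9.47 and 9.66 CPM in KO, 4.47-fold less (log2 -2.16 ± 0.08; adjusted p = 3.76e-10, edgeR). Fzd5, a Wnt receptor, went from 173.5 and 177.4 to 41.1 and 45.6 CPM (log2 -2.02 ± 0.06). Inhbb, the beta B chain of activins and inhibins, had 31.8 and 32.9 CPM in WT and 7.87 and 9.35 CPM in KO (log2 -1.91 ± 0.09). KO libraries lay far below WT for each of these genes. The protease inhibitor A2m (log2 -1.92), the retrotransposon-derived imprinted gene Rtl1 (-1.92), the receptor Notch4 (-1.89), the oxidoreductase Enox1 (-1.88), the schlafen family member Slfn9 (-1.87) and the zinc finger repressor Trps1 (-1.81) were close behind. Ifitm1, an interferon-induced membrane protein, had 111.9 and 79.6 CPM in WT and 25.3 and 22.9 CPM in KO (log2 -1.99 ± 0.24); it did not pass without KO replicate 1 or without KO replicate 2 (largest adjusted p = 0.107, edgeR). On day 2, 9 of these 10 passed as lower, and Rtl1 did not (log2 -1.01, adjusted p = 0.0582).

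**Figure D2:**
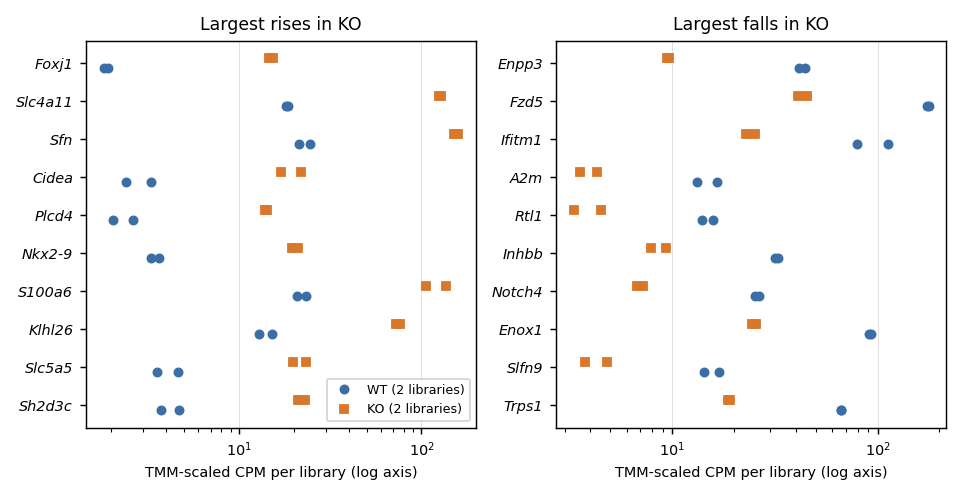
TMM-scaled CPM on a log axis in each WT (circles) and KO (squares) library for the 10 protein-coding genes with the largest rises (left) and the 10 with the largest falls (right), among genes with an average log2 CPM of at least 3 and without Cnot3 and the lineage lists. Lack of overlap between the groups was a condition for choosing the 20 genes. The 2 WT libraries of Ifitm1 lie apart (111.9 and 79.6 CPM).

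Of the 40 lists described here, that of germ cell genes had the largest share of rises. They act in meiosis and in piRNA production, which silences transposons. In WT they summed to 1020 and 1015 CPM, and their median average log2 CPM over the 4 libraries was 4.10. Of 37 germline genes, all of which could be tested, 30 rose and 4 fell (median log2 0.77, against 0.02 over all genes tested, and 0.64 relative to genes of like abundance), and the median on day 2 was 0.62. Dnmt3c, a DNA methyltransferase of male germ cells, had 0.319 and 0.218 CPM in WT and 1.03 and 1.34 CPM in KO (log2 2.12 ± 0.36). This rests on 6 to 44 reads per library, and Dnmt3c passed the filter on low counts through KO alone. Taf7l, a testis form of a TFIID subunit, had 4.05 and 3.63 CPM in WT and 15.7 and 16.0 CPM in KO (log2 2.04 ± 0.11, adjusted p = 8.87e-09, edgeR). Tex101, a sperm surface protein, rose by 1.65 and the testis bromodomain protein Brdt by 1.64. Against the direction of the list, Zfp57, the zinc finger protein that keeps imprints, went from 225.3 and 223.5 to 93.8 and 100.8 CPM (log2 -1.21), and the piRNA factor Tdrd12 fell by 0.95; both were chosen after their values were seen. Without any 1 of the 4 libraries 27 or 28 germline genes rose.

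Promoters of germline genes are known to carry an E-box read by the Polycomb-like complex PRC1.6, so the letters CACGTG, which read the same on both strands, were looked for in the 250 bases before each gene's start (RefSeq, GRCm38.p6). Of 30 germline genes with an entry, 13 held the motif (43.3%), against 6.86% of the 27025 genes in the table and 9.24% of the genes tested that have an entry. It stood before 10 of 24 germline genes that rose (41.7%) and 3 of 6 that did not, so its presence did not set apart the genes that rose within the list. It stood before 7.22% of genes higher by at least 1, and before 2 of 35 motile cilia genes (5.71%). The E2F letters GCGGGAA, on either strand, stood before 8 of the 30 (26.7%), 4.38% of all and 7.45% of the genes tested that have an entry. They stood before 6 of the 24 germline genes that rose and 2 of the 6 that did not. A match describes letters in this window and is not a binding site. The stretches around the E-box of 4 germline genes that rose by at least 1 are given to show its setting, 70 bases each, 5′ to 3′ on the gene's strand, with the E-box in capitals. That of Taf7l lies at chrX:134476502-134476571 on the minus strand, that of Brdt at chr5:107331084-107331153 on the plus strand, that of Slc25a31, the testis ADP/ATP carrier (log2 1.41), at chr3:40708746-40708815 on the plus strand, and that of Ddx4, the germ cell helicase Vasa (log2 1.13), at chr13:112652311-112652380 on the minus strand.
Taf7l: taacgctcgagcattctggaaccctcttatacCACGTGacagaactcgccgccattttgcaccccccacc
Brdt: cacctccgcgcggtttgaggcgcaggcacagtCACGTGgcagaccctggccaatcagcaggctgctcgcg
Slc25a31: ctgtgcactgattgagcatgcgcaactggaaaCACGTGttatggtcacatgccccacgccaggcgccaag
Ddx4: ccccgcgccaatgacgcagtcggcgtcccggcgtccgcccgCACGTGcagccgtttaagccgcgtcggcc

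Genes of motile cilia, the beating appendages of airway and ependymal cells, rose next to Foxj1. Of 42 such genes 39 passed the filter on low counts, 27 rose and 4 fell (median log2 0.83, 0.61 relative to genes of like abundance, and 0.69 on day 2). The list's median abundance lies in the protein-coding quintile of 1.52 to 7.97 CPM. In that quintile 50.4% of genes were higher and 12.5% lower, with a median of 0.40. Many of the cilia genes were near the limit of detection. Lrrc6, a dynein assembly factor, rests on 3 and 9 reads in WT and 27 and 24 in KO (log2 1.97 ± 0.46). It passed the filter on low counts through KO alone. Cfap53 rests on 15 and 16 reads in WT and 58 and 56 in KO (1.78 ± 0.27). Spag16, of the axoneme's central pair, had 2.296 and 2.106 CPM in WT and 7.47 and 6.51 CPM in KO (log2 1.66 ± 0.15). Ak7, an adenylate kinase of cilia, fell by 1.03 (chosen after its values were seen). The summed level of the list went only from 161.1 and 164.8 CPM in WT to 211.9 and 215.5 CPM in KO. With DESeq2 and in a joint fit with the polysome libraries 19 rose, and without KO replicate 1, 18. Intraflagellar transport and BBSome genes, which build primary cilia as well, rose in 16 of 30 and fell in 1 (median log2 0.30; 7 higher in the joint fit and 28 with library totals in place of TMM). Ift81 had 12.2 and 11.4 CPM in WT and 32.1 and 31.9 CPM in KO (log2 1.44 ± 0.08), and the BBSome subunit Bbs7 rose by 1.17.

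**Figure D3:**
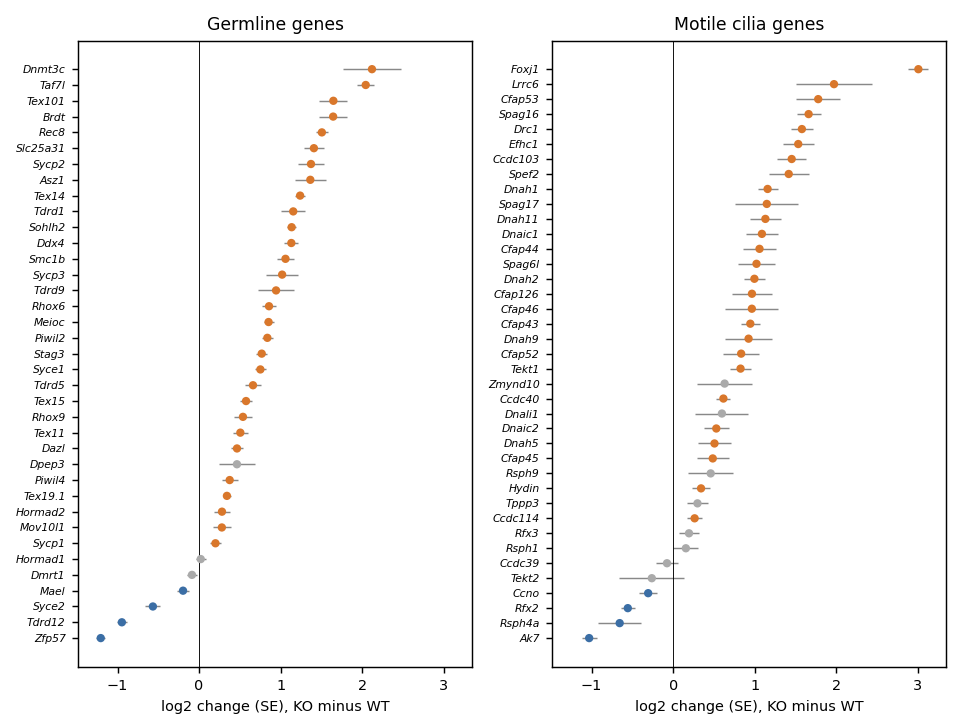
Log2 change on day 3 (KO minus WT) with its standard error for each germline gene tested (left) and each motile cilia gene tested (right); orange and blue points passed adjusted p 0.05 as higher and lower, gray points did not. Most points lie above 0, with Foxj1 at 3.01 and Zfp57 at -1.21.

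Glycolysis was the functional list with the lowest median. ESCs are known for a high rate of glycolysis, which turns glucose into lactate. All 22 genes passed the test, 18 as lower and 4 as higher (median log2 -0.58, -0.25 relative to genes of like abundance, and -0.29 on day 2). Their share of falls compares with 57.7% in the most abundant quintile of all genes. Hexokinase 2, Hk2, which traps glucose in the cell, had 516.8 and 504.2 CPM in WT and 227.3 and 226.5 CPM in KO (log2 -1.17 ± 0.05, adjusted p = 3.06e-09, edgeR). The liver-type phosphofructokinase Pfkl fell by 0.93, the enolase Eno1 by 0.88 and Pdk1, a kinase that inhibits pyruvate dehydrogenase, by 0.84. The 4 that rose were the isozymes Hk1, Pfkm, Aldoc and Eno2, with Eno2, the neuronal enolase, at 3.57 and 3.12 CPM in WT and 5.81 and 5.99 CPM in KO (log2 0.81); these 4 are named because they are all that rose. The glucose transporters Slc2a1 (log2 -0.15) and Slc2a3 (-0.19) moved least among those that fell, together with Ldhb (-0.15). With library totals in place of TMM, which raised the median of all genes from 0.02 to 0.28, 14 glycolysis genes were lower and the median was -0.31, and in a joint fit with the polysome libraries 11 were lower and none higher (edgeR). Without KO replicate 1, 18 were lower and 1 higher, and without KO replicate 2, 15 and 2.

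Machinery for making and processing RNA and protein was lower across several lists, mostly by small amounts. Of 33 splicing factors of the SR and hnRNP families, 29 fell and 1 rose (median log2 -0.42, but -0.12 relative to genes of like abundance; 17 lower with library totals). Hnrnpa0 had 164.1 and 159.0 CPM in WT and 73.4 and 81.0 CPM in KO (log2 -1.07 ± 0.06), whereas Srsf12, a splicing repressor, rose by 1.03. Of 32 RNA polymerase subunits, 21 fell and 4 rose (median -0.37, but -0.17 relative to genes of like abundance). With library totals 7 were lower and 8 higher. The shared subunit Polr2k fell by 0.71, and Polr2f was at -0.65 but did not pass without KO replicate 1, without KO replicate 2 or with no filter (largest adjusted p = 0.149, edgeR). Of 22 chaperones and folding factors of the endoplasmic reticulum, 17 fell and 1 rose, led by the secreted factor Manf (-0.82). Their median was -0.36, but -0.12 relative to genes of like abundance, and 6 were lower and 3 higher with library totals. Nucleotide and one-carbon metabolism, which feeds DNA synthesis, had 20 of 31 lower and 1 higher (median -0.28, but -0.01 relative to genes of like abundance). With library totals 8 were lower and 10 higher. The dUTPase Dut had 216.5 and 207.0 CPM in WT and 126.7 and 122.3 CPM in KO (log2 -0.77). Of 32 proteasome subunits 25 fell and none rose by edgeR, at an unadjusted p of 0.05 or with DESeq2 (median -0.26, the same as genes of like abundance). With library totals the proteasome had 8 lower, 6 higher and a median of 0.00. Psmb5, the chymotrypsin-like subunit, fell by 0.71 with TMM. The joint fit with the polysome libraries, which takes its spread from 8 libraries, left 10 splicing factors, 10 polymerase subunits, 1 folding factor, 5 genes of nucleotide metabolism and 3 proteasome subunits lower.

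Lists of other RNA and nuclear functions were mixed or close to the background. For mRNA 3′ end processing 11 of 20 genes fell and 4 rose, with Cpsf6, of the cleavage factor CFIm, at 327.6 and 325.0 CPM in WT and 200.2 and 194.1 CPM in KO (log2 -0.73). In nonsense-mediated decay 9 of 17 fell and 3 rose; Magohb, a core protein of the exon junction complex, went from 15.8 and 14.3 to 5.71 and 6.23 CPM (log2 -1.34 ± 0.10) and moved most. The exosome, the nuclear RNA degradation machine, had 7 of 18 lower and 2 higher, with its cytoplasmic nuclease Dis3l up by 0.97. Of 27 nuclear pore genes 11 fell and 4 rose, with Nup210 at -0.95. These 4 lists had medians from -0.22 to -0.09, which turned positive with library totals, where more genes were higher than lower in each (8 and 5, 8 and 2, 9 and 1, and 15 and 3), and in the joint fit 3, 1, 0 and 3 of their genes, in this order, were lower (edgeR). Polycomb genes fell in 18 of 33 and rose in 7 (median -0.25, and 0.01 with library totals, where 13 were higher and 11 lower; 4 higher and 9 lower in the joint fit). Phf19, which brings PRC2 to CpG islands, had 8.55 and 9.51 CPM in WT and 21.1 and 21.1 CPM in KO (log2 1.23), while Phc1, of PRC1, went from 399.8 and 406.5 to 219.8 and 234.9 CPM (-0.83). In the BAF remodelling complex 14 of 25 fell and 4 rose (median -0.26, and 0.01 with library totals, where 8 were higher and 8 lower; 1 higher and 6 lower in the joint fit; 2 higher without KO replicate 2), with Dpf1, a subunit of the neuronal form, at -1.19 and the ATPase Smarca2 at 0.86. Homologous recombination and Fanconi anaemia genes had 7 of 33 lower and 5 higher, fewer than the share of all genes called. With library totals 24 were higher and 1 lower, in the joint fit 1 and 1, and without WT replicate 1, 2 and 7.

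**Figure D4:**
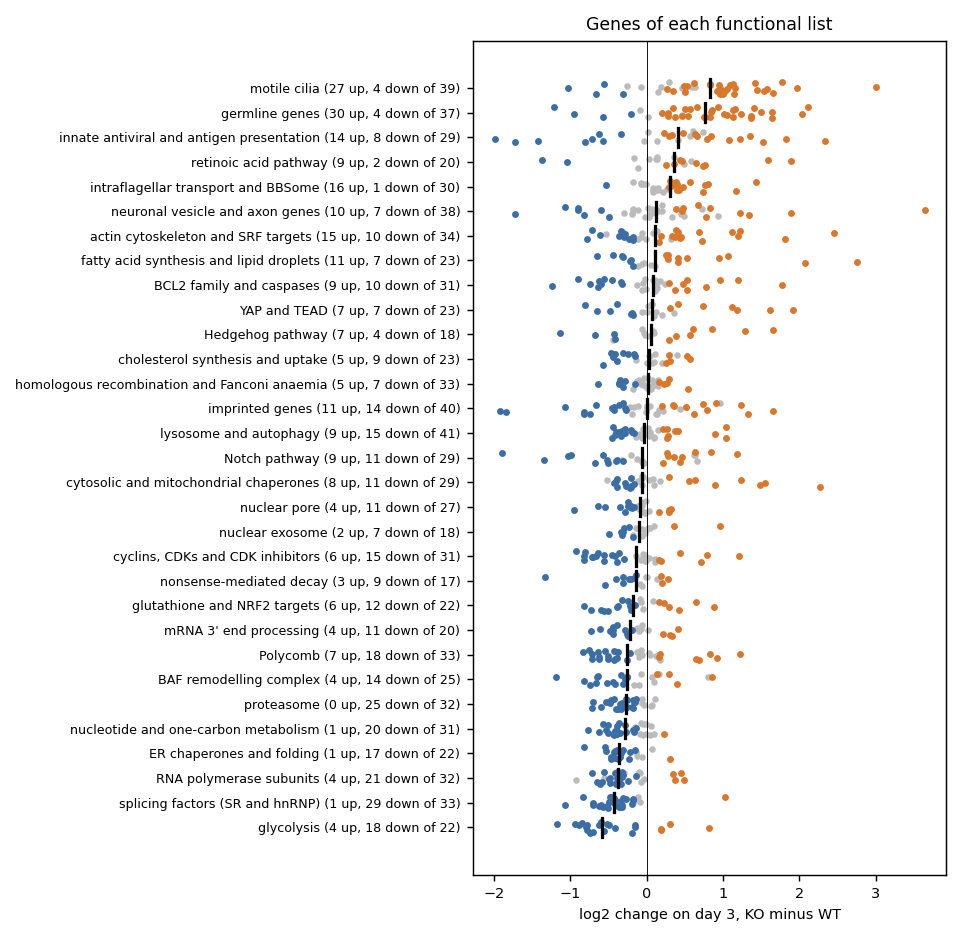
Log2 change on day 3 (KO minus WT) of each gene tested in the 31 functional lists, ordered by the list's median (black bar); orange and blue points passed adjusted p 0.05 as higher and lower, gray points did not, and the labels give the counts. Motile cilia and germline genes are at the top and glycolysis, splicing factors and RNA polymerase subunits at the bottom.

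In a list of innate antiviral and antigen presentation genes, 14 of 29 tested (33 in all) rose and 8 fell. Nlrc5, the activator of MHC class I genes (ENSMUSG00000074151; chromosome 8, 94434356 to 94527272, GRCm38), had 1.69 and 1.92 CPM in WT and 8.60 and 9.66 CPM in KO, 5.07-fold more (log2 2.34 ± 0.14, adjusted p = 3.58e-08, edgeR). Tap1, a subunit of the peptide transporter that loads MHC class I, had 4.08 and 3.56 CPM in WT and 14.02 and 13.26 CPM in KO (log2 1.83 ± 0.11). Its partner Tap2 (1.53) and the light chain B2m (0.79), chosen after their values were seen, rose as well. Ifitm3, which blocks entry of viruses, went the other way, from 43.4 and 34.6 to 12.2 and 11.6 CPM (log2 -1.72 ± 0.11). The list's median was 0.42 on day 3 and 0.01 on day 2, where Nlrc5 and Tap1 were at 2.96 and 2.28. Without KO replicate 1 or KO replicate 2, 9 or 8 members rose, 8 did with DESeq2 and 6 in the joint fit.

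Neuronal genes were led by Stmn4, a stathmin of neurons, with 11 and 8 reads in WT and 141 and 115 in KO (log2 3.65 ± 0.28). Stmn4 passed the filter on low counts through KO alone. Vgf, a secreted neuropeptide precursor, had 1.91 and 1.92 CPM in WT and 7.41 and 6.88 CPM in KO (1.89 ± 0.14), and the synaptic vesicle protein Syp rose by 1.34. Rest, the repressor of neuronal genes outside neurons, went from 841.9 and 847.1 to 250.2 and 261.6 CPM, 3.30-fold less (log2 -1.72 ± 0.06). The list as a whole had 10 of 38 higher and 7 lower, with a median of 0.12, near that of all genes. With DESeq2 6 were higher and 6 lower, in the joint fit 5 and 6, and with library totals 21 and 6. Of genes for stress chaperones in the cytosol and mitochondria, 8 of 29 rose and 11 fell, but 6 fell without KO replicate 2, and 16 rose and 1 fell with library totals (7 and 1 in the joint fit). The inducible HSP70 genes Hspa1a (0.574 and 0.472 CPM in WT, 2.59 and 2.51 CPM in KO, log2 2.27 ± 0.24) and Hspa1b (log2 1.55) rose with the HSP110 member Hspa4l (1.49) and the co-chaperone Dnajb4 (1.24). Hspa1a and Hspa1b are near-identical copies, so the split of reads between them is uncertain.

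Some lipid droplet genes rose next to Cidea. Plin2, which coats droplets, had 19.5 and 21.8 CPM in WT and 90.9 and 82.8 CPM in KO, 4.21-fold more (log2 2.07 ± 0.07), and Mgll, which cleaves monoglycerides, rose by 1.06. The droplet gene Cidec had 13 reads in each WT library and 22 and 32 in KO (log2 0.95). It did not pass with DESeq2 or in the joint fit. Of 23 genes for fatty acids and droplets 11 rose and 7 fell (4 and 1 in the joint fit, 12 and 1 with library totals). Their median was 0.11, and their summed level was 3174 and 3273 CPM in WT and 2946 and 3006 CPM in KO. In cholesterol synthesis and uptake 5 of 23 rose and 9 fell, within a range of -0.57 for the regulator Srebf2 to 0.57 for Pmvk. Without KO replicate 1 or without WT replicate 2 only 2 of these rose, and with library totals 13 rose and 2 fell (2 and 2 in the joint fit). Among NRF2 targets and glutathione enzymes (6 of 22 higher, 12 lower) the heme oxygenase Hmox1 rose by 0.88 and the peroxiredoxin Prdx1 fell by 0.73. The NRF2 list had 2 higher and 8 lower without KO replicate 1, 3 and 9 without KO replicate 2, 10 and 5 with library totals and 1 and 4 in the joint fit. Autophagy and lysosome genes had 9 of 41 higher and 15 lower, with the autophagy receptor Sqstm1 (p62) at 228.6 and 219.9 CPM in WT and 423.4 and 415.3 CPM in KO (log2 0.90); with library totals 25 of the list were higher and 1 lower, and in the joint fit 3 and 0.

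Growth control and signaling lists each held genes of both directions. Among cyclins, CDKs and their inhibitors 15 of 31 fell and 6 rose: Ccnd1 had 162.2 and 169.4 CPM in WT and 87.3 and 87.6 CPM in KO (log2 -0.92), the inhibitor Cdkn1c fell by 0.82, and the inhibitor Cdkn2b, known as a TGF-beta target, rose by 1.22; with library totals 13 of the list were higher and 11 lower. In the BCL2 family and caspases 9 of 31 rose and 10 fell (19 and 7 with library totals, 10 and 9 without WT replicate 1). Fas, a death receptor, had 23 and 16 reads in WT and 66 and 77 in KO (log2 1.78 ± 0.24), its effector Casp8 rose by 1.20, and the BH3-only protein Bmf fell by 1.24. Actin cytoskeleton genes and SRF targets rose in 15 of 34 tested and fell in 10; the membrane-binding Anxa1 (14.1 and 14.2 CPM in WT, 52.6 and 46.5 CPM in KO, log2 1.81), the filamin Flnc (1.22) and the focal adhesion protein Zyx (1.20) rose. In the joint fit 6 of the actin list rose and 3 fell, and with library totals 20 and 4. Of 23 genes of the YAP and TEAD pathway 7 rose and 7 fell (16 and 3 with library totals, 5 and 2 in the joint fit), and its target Ccn1 had 13.01 and 14.09 CPM in WT and 51.9 and 50.9 CPM in KO (log2 1.92 ± 0.07). S100a6, Anxa1, Flnc and Ccn1 are also abundant in fibroblasts, whose markers were higher in KO (above), and the part of such cells was not tested.

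For Notch signaling 9 of 29 tested rose and 11 fell, with the receptor Notch4 at 25.3 and 26.6 CPM in WT and 7.21 and 6.75 CPM in KO and the coactivator Maml2 at -1.34. Without KO replicate 1 only 4 of the list rose and 9 fell, in the joint fit 3 and 7, and with library totals 13 and 7. Hedgehog signaling had 7 of 18 higher and 4 lower (9 and 2 with library totals, 4 and 1 in the joint fit). Its ligand Dhh rose from 16 and 18 reads to 60 and 55 (log2 1.66), and the effector Gli2 fell by 1.14. In the retinoic acid pathway the synthetic enzyme Aldh1a3 (log2 1.89) and the degrading enzyme Cyp26b1 (1.59) rose, and the receptors Rara (70.3 and 77.2 CPM in WT, 28.2 and 28.8 CPM in KO, -1.37) and Rarg (-1.04) fell. In all, 9 of 20 rose and 2 fell (3 and 2 in the joint fit, 14 and 2 with library totals).

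Gene families were counted by name. Of 377 solute carriers 344 were tested, 113 rose and 93 fell; with DESeq2, 66 rose and 75 fell, without KO replicate 1, 78 and 80, in the joint fit 57 and 39, and with library totals 183 and 49. Slc35g2, with 23 and 16 reads in WT and 125 and 113 in KO, rose by 2.51, next to Slc4a11 and Slc5a5. Of 97 potassium channel genes 79 were tested, 27 rose and 10 fell. Their median of 0.46 was 0.17 relative to genes of like abundance of every class. It lay under the 0.75 of the lowest protein-coding quintile (0.271 to 1.52 CPM), where 40.4% were higher. That quintile holds the list's median abundance. The list's median was 0.59 without KO replicate 1 and 0.39 without KO replicate 2. With DESeq2 13 of the list rose, and 14 in the joint fit. Kcne1, a beta subunit, had 7 reads in each WT library and 34 and 29 in KO (log2 2.06 ± 0.37). Its WT reads were below the filter's minimum count of 10, so it was tested through KO alone. Of 42 Hox genes 14 were tested and 4 rose, near the 28.9% of all genes that were higher. Hoxc13 rose most (21 and 14 reads in WT, 63 and 76 in KO, log2 1.89 ± 0.25). The Hox median of 0.22 was -0.20 relative to genes of like abundance. No Hox gene was lower by edgeR, at an unadjusted p of 0.05 or with DESeq2, and 2 rose with DESeq2. In the lowest quintile of all genes, where the list's median abundance lies, only 5.15% were lower. Rab GTPases had 20 of 73 higher and 24 lower, but 38 and 10 with library totals and 14 and 7 in the joint fit. Of 24 clustered protocadherins 8 were tested, with 1 higher and 1 lower (4 and 1 without WT replicate 2).

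Several classes of noncoding transcripts held more falls than rises. The 4 libraries hold RNA without poly(A) tails, since the small nuclear RNA Rn7sk took 1.59% to 2.297% of their gene counts. Of 184 small nucleolar and Cajal body RNAs (snoRNAs and scaRNAs, which guide chemical modification of other RNAs) tested, 101 fell (median log2 -0.74), and none rose by edgeR, at an unadjusted p of 0.05 or with DESeq2 (1 rose with library totals). WT replicate 1 held more of this class than the other libraries (0.220% of gene counts, against 0.133% to 0.158%) and more Rn7sk. Without it 67 of 196 fell (median -0.52), and without KO replicate 2, 52 of 209; in the joint fit 38 fell. Processed pseudogenes, copies of mRNAs that share reads with their parent genes and are therefore uncertain, fell in 259 of 844 and rose in 27 (median -0.42; 141 lower with DESeq2, 131 without KO replicate 2, 136 with library totals and 103 in the joint fit). Of 956 long noncoding RNAs 150 rose and 172 fell, with a median of 0.03. Among 16 polymerase III and other structural RNAs 14 were tested and 1 fell. This count rests on single libraries: 9 fell without WT replicate 2, 5 without KO replicate 1, 10 with the replicate block and 4 with no filter. The 1 was Rnu73b (log2 -0.69), which did not pass with DESeq2, in the joint fit, with library totals, without KO replicate 1 or without WT replicate 1 (largest adjusted p = 0.296, edgeR's joint fit).

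Among noncoding transcripts with an average log2 CPM of at least 1, pseudogenes left out, the lowest was Kis2 (ENSMUSG00000086173; chromosome X, 52742563 to 52744960, GRCm38), at the locus that encodes the miR-106a cluster, a copy of the miR-17 cluster. It had 622 and 445 reads in WT and 111 and 128 in KO (19.8 and 16.2 CPM against 3.69 and 3.91), 4.74-fold less (log2 -2.24 ± 0.12, adjusted p = 1.92e-08, edgeR). The hairpin genes Mir18b (167 and 95 reads in WT, 28 and 34 in KO, log2 -2.16) and Mir363 (42 and 29 in WT, 6 and 8 in KO, -2.41) beside it fell too. Mir17hg, the host transcript of the related miR-17 cluster, had 61.4 and 59.0 CPM in WT and 26.8 and 28.2 CPM in KO (log2 -1.13 ± 0.06). The host transcript Mir670hg fell by 1.90, and Mir22hg rose by 0.81. Hairpins of the miR-290 cluster, the most abundant microRNAs of mouse ESCs, fell in 5 of 7: Mir291b had 39.2 and 35.4 CPM in WT and 22.8 and 24.1 CPM in KO (log2 -0.67 ± 0.07), and Mir292, Mir293, Mir294 and Mir295 were at -0.79, -0.76, -0.77 and -0.81. Mir290a and Mir291a did not pass (log2 -0.96 each, adjusted p = 0.168 and 0.0853, edgeR). WT replicate 1 had 2287 reads of Mir290a and WT replicate 2 had 1141. Mir292 (1338 and 850 reads in WT, 616 and 723 in KO) and Mir293 (996 and 660, 475 and 565) were also higher in WT replicate 1. On day 2 Mir293, Mir294 and Mir295 passed as lower. Mir291a, Mir291b, Mir292 (log2 -0.11) and Mir290a (log2 1.14) did not pass there. Mir200a, of a family that restrains epithelial-mesenchymal change, had 9 and 11 reads in WT and 31 and 26 in KO (log2 1.41 ± 0.36). These hairpins were chosen after their values were seen. Nlrp12, a gene on the opposite strand, overlaps hairpins of the miR-290 cluster, and reads of the strands cannot be told apart. The reads come from libraries of long RNA and count precursors, not mature microRNAs. Of 69 hairpins tested 18 fell and 2 rose (14 and 0 with DESeq2, 10 and 1 in the joint fit, 16 and 0 without KO replicate 1).

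Mature sequences of some of these hairpins (RefSeq, GRCm38.p6) are printed with the seed, bases 2 to 8, in capitals. All come from hairpins that fell, except miR-200a, whose hairpin rose. The miR-291b, miR-294 and miR-295 3p strands hold AAGUGC within the seed, as do 16 of 1738 mature mouse strands in the table (0.921%); the seed of miR-293-3p, GUGCCGC, differs. The seed of miR-18b-5p and that of miR-363-3p are not shared with them. The printed strands of miR-291b, miR-294 and miR-295 lie at chr7:3219529-3219550, chr7:3220691-3220712 and chr7:3220815-3220837, on the plus strand. The 3p strand of Mir292 was not analysed here. Among 5p strands, not printed, miR-292a and miR-293 share the seed CUCAAAC. The 5p seeds of miR-294 (CUCAAAA) and miR-295 (CUCAAAU) differ from it in the last base.
miR-291b-3p: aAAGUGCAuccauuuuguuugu
miR-294-3p: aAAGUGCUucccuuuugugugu
miR-295-3p: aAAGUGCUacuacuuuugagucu
miR-293-3p: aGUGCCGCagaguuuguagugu
miR-18b-5p: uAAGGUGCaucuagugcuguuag
miR-363-3p: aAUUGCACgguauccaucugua
miR-200a-3p: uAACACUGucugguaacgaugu

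Imprinted genes had 11 of 40 tested higher and 14 lower, with a median of 0.01 (17 and 8 with library totals, 5 and 6 in the joint fit). The falls included a single domain. Meg3, the maternally expressed long noncoding RNA of the Dlk1-Dio3 region (ENSMUSG00000021268; chromosome 12, 109541001 to 109571726, GRCm38), had 49.6 and 43.8 CPM in WT and 11.96 and 14.03 CPM in KO (log2 -1.84 ± 0.09, adjusted p = 1.24e-08, edgeR; -1.41 on day 2). Rtl1, a retrotransposon-derived gene beside it, had 493 and 385 reads in WT and 100 and 147 in KO. Of 19 transcripts tested from Dlk1 to Dio3, 16 fell and none passed as higher (Dlk1 and Dio3 were the ones above 0): 9 of 10 snoRNAs, all 5 microRNA hairpins, Meg3 and Rtl1. The snoRNAs had 297 and 166 reads together in WT and 68 and 82 in KO. Dlk1, the paternally expressed gene at the edge of the domain, did not pass, with 89 and 86 reads in WT and 87 and 101 in KO (log2 0.01 ± 0.16), nor did Dio3 (log2 0.17, adjusted p = 0.656, edgeR). The region was chosen after its values were seen, and counting is not known to use strand, so reads of overlapping antisense transcripts such as Rtl1's cannot be told apart. Elsewhere, Sgce, a sarcoglycan (log2 1.66), and Slc22a18 (1.33) rose.

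Among 26 described long noncoding RNAs 21 were tested, 11 fell and 3 rose (median log2 -0.43; 7 and 2 in the joint fit). Tsix went from 201 and 169 reads to 59 and 81 (log2 -1.49) and its antisense partner Xist from 555 and 453 to 190 and 256 (-1.27), and reads of the pair cannot be told apart where they overlap. Halr1, transcribed near the HoxA cluster, fell by 1.11. Of 18 Platr transcripts, a set named for association with pluripotency, 12 fell and 1 rose (median -0.75), among them Platr16 with 188 and 129 reads in WT and 63 and 56 in KO (log2 -1.50). Notumos, antisense to the Wnt inhibitor Notum, had 9.95 and 10.5 CPM in WT and 2.56 and 2.35 CPM in KO (-2.06), and Gm12690 and Gm14820 fell by 1.77 and 1.72. The highest rises among noncoding transcripts with an average log2 CPM of at least 1 were in 5830418P13Rik (1.24 and 1.82 CPM in WT, 5.91 and 6.11 CPM in KO, log2 1.99 ± 0.18) and Gm14742 (1.95 ± 0.17).

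**Figure D5:**
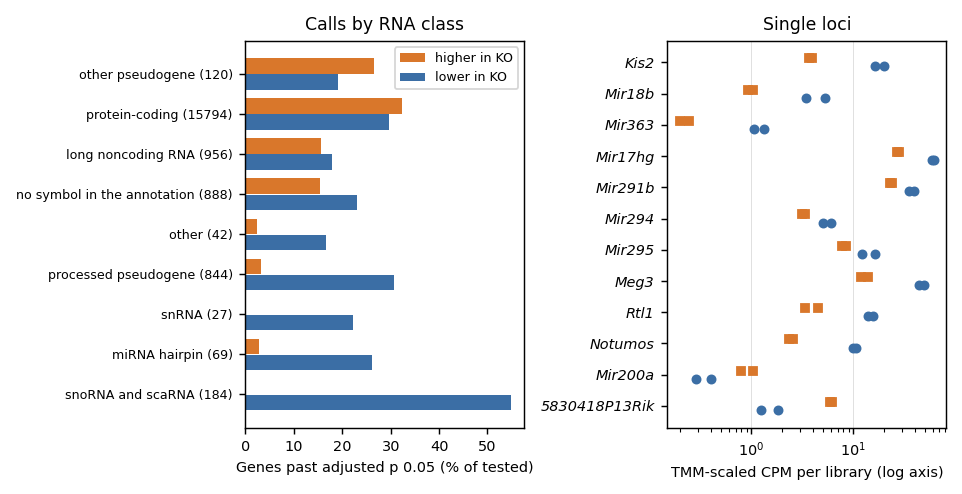
Left, percentage of genes tested in each RNA class (number tested in brackets) that passed adjusted p 0.05 as higher (orange) or lower (blue); right, TMM-scaled CPM on a log axis in each WT (circles) and KO (squares) library for 12 loci named in the text. No snoRNA was higher. The 12 loci were chosen among genes that passed, and every gene that passed had groups that did not overlap.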

How the data were processed

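RNA sequencing libraries of mouse ESCs were compared, 2 KO against 2 WT of day 3. The deposited values were whole-number counts of reads per gene for 37991 Ensembl IDs; per the submitters' processing notes, the authors used STAR 2.3.0e, mm9 and HTSeq, whose version and strand setting are not given in the sources used here. HTSeq's tallies of unassigned reads stayed out of the fits (reads outside genes, 19.8% to 23.7% of counted reads). GENCODE M21 (GRCm38) gave symbols, biotypes and positions by ID for 32938 IDs; the other 5053 were fitted and not named. edgeR 4.0.16 in R 4.3.3 was run with TMM, filterByExpr (minimum count 10), robust quasi-likelihood F-tests and Benjamini-Hochberg adjustment over all genes tested; the day 2 libraries were fitted apart. CPM are TMM-scaled. P-values measure the spread between 2 replicates a group.

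The members and the 40 gene lists were chosen with earlier results of these data known. Genes named had adjusted p under 0.05, groups that did not overlap, and a symbol: the 10 highest and 10 lowest protein-coding genes (average log2 CPM of at least 3), the 6 highest and lowest noncoding genes (at least 1), and up to 4 members of each list with the largest change, lineage markers left out. Simulated data with the means, library sizes and dispersion of this comparison held 18924 genes, of which 200 were changed. There 73% of changes of log2 1 and 99% of log2 2 were recovered and 14% of calls were false, above the threshold of 0.05. In the real data 57.8% of genes passed, a far larger share than was changed in the simulation. These rates therefore do not carry over to the real calls. Alternatives were RLE scaling, library totals, protein-coding scaling, DESeq2 1.42.0, no filter on low counts, one of 1 CPM, a replicate block, a joint fit with the polysome libraries and each library left out. Tables and figures used Python 3.11.15, pandas 2.3.3 and matplotlib 3.10.9.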

Additional observations from a re-analysis of the deposited data

Results flagged for a closer look

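Reads outside annotated genes, which no comparison above uses as a result, came to 22.3% of counted reads in KO replicate 1 and 23.7% in KO replicate 2, above the 19.8% and 20.7% of the WT libraries. On day 2 the KO libraries were not above both WT libraries in this share (6.27% and 6.57% against 7.22% and 6.70%). The day 2 libraries held at most 0.000137% Rn7sk and differ in make-up, so their share is not a like measure. The difference on day 3 was not tested, and neither was its origin.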

How the results depend on the processing

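Numbers of genes called moved with scaling and tool. Against 5469 higher and 5467 lower genes, library totals gave 9034 and 2720 (3468 and 286 by at least 1, against 2126 and 630), the joint fit with polysomes 2931 and 2225, and DESeq2 3496 higher (4514 lower). With library totals 76.9% of calls were higher, as the median of all genes moved to 0.28. Without 1 library, 3939 to 5028 genes were higher and 4473 to 5540 lower, 1630 to 2292 and 532 to 863 by at least 1. With the replicate block 5897 were higher and 6103 lower; the correlation between the arms' replicate deviations was 0.13 over 2 pairs, so the numbers were not taken to pair samples. RLE scaling, protein-coding scaling, no filter and the filter of 1 CPM kept these counts within 1.5 times.

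None of the 176 named gene entries changed direction under an alternative that tested it; the filter of 1 CPM tested 164 of them and the joint fit 173. Calls were lost for 8 with DESeq2, 24 in the joint fit, 11 with library totals, 4 with no filter and 1 to 11 without 1 library. Of 40 list medians, 13 changed sign with library totals, and the largest of these was 0.264 in size in the main fit. Taken minus the median of all genes, these changed sign: with no filter, fatty acids and lipid droplets (-0.068), BCL2 family (-0.087), neuronal (-0.055), actin (-0.064), YAP (-0.10), solute carriers (-0.024), other pseudogenes (-0.046) and protein-coding genes (-0.12); with the filter of 1 CPM, lysosome (0.000505) and other pseudogenes (-0.016); in the joint fit, Hox (-0.055); and the BCL2 family without KO replicate 1 (-0.0049), WT replicate 1 (-0.0238) or WT replicate 2 (-0.00305). Without KO replicate 2 it kept its sign (0.0220). The cause was not tested. No filter also moved the median of all genes to 0.13. Depth limits the rare genes of the cilia, channel and Hox lists.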
